A study of Mus musculus with 13 samples.

Results

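The genes described here are 10 mouse genes of inflammatory signalling: the colony-stimulating factors Csf1, Csf2 and Csf3, the cytokines Il1a, Il1b, Tnf, Il6 and Lif, and the response genes Tnfaip3 and Saa3. They were taken by symbol, as cytokines linked to myeloid expansion by 4T1 tumours together with genes that such cytokines switch on, and every probe annotated to them was followed. The 4T1 line is a mouse mammary carcinoma line that spreads from the mammary fat pad and is known for an expansion of myeloid cells in its hosts. Total RNA of orthotopic 4T1 tumours had been hybridised to Illumina bead arrays of 2 designs. On 9 arrays of 1 design, 17 of 45281 probes belonged to these genes, and all 10 genes were among the 11057 tested. On 4 arrays of another design, 13 of 25697 probes belonged to them, and 9 of the 10 genes were among the 9714 measured, because Il6 was not detected on any of the 4.

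The 9 arrays formed 3 groups of 3 tumours. TK/anti-Ang2 tumours grew in PDGFRb-TK mice given an antibody against angiopoietin-2 (Ang2), TK/IgG tumours in PDGFRb-TK mice given control IgG, and WT/IgG tumours in WT mice given control IgG. The 4 arrays held 1 tumour sample each of early pericyte ablation, its early control, late pericyte ablation and its late control. All 13 samples came from animals injected with GCV (ganciclovir), controls included. The PDGFRb-TK transgene puts a viral thymidine kinase under the promoter of Pdgfrb, a receptor of pericytes that fibroblasts also carry, and ganciclovir kills dividing cells that hold the enzyme. The labels name the early and late control samples PDGFRb-TK in the genotype field and WT in the description, and give a positive transgene field for every sample, WT hosts included. Ages and treatment times were not given in the sources used here, nor whether a sample was 1 tumour or a pool. Nothing in the labels says that replicates came from separate animals, so the tests measure the spread between these samples.

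The 3 colony-stimulating factors act on myeloid cells: Csf1 (M-CSF) on the macrophage lineage, Csf2 (GM-CSF) on granulocytes and macrophages, and Csf3 (G-CSF) on neutrophils and their precursors. Interleukin-1α and interleukin-1β, products of Il1a and Il1b, and tumour necrosis factor, the product of Tnf, signal through receptors that activate the transcription factor NF-κB. NF-κB raises Il6, Csf2 and Csf3 in many cell types, and also Tnfaip3, whose product A20 dampens the same pathway. Interleukin-6 and leukaemia inhibitory factor (Lif) act through a shared receptor subunit and STAT3. Saa3, an acute phase gene expressed outside the liver in mice, responds to interleukin-1, tumour necrosis factor and interleukin-6.

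Promoter sequence was available from RefSeq (GRCm38.p6) for 9 of the 10 genes and was searched for the κB consensus that NF-κB binds, on both strands. The 9 genes had 10 windows, each from 250 bases before to 50 after a start. A match was present in 4 of the 10 windows, against 8.46% of 32851 RefSeq windows. The 4 belong to Csf1, Il6, Lif and Tnfaip3, and a further Tnfaip3 window had none. The 130 bases before the start are shown for Tnfaip3 and Il6, where the matches lie close to the start, and for Csf2, which of the 10 genes differed most between TK/IgG and WT/IgG tumours and had no match in its window. They are written 5′ to 3′ on the gene's strand, with κB matches in capitals.
Tnfaip3, chr10:19015411-19015540, minus strand: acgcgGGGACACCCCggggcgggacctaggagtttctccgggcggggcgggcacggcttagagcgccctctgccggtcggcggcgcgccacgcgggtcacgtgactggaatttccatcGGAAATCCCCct
Il6, chr5:30012984-30013113, plus strand: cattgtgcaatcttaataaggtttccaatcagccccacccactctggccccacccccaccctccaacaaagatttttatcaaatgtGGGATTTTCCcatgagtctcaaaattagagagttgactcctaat
Csf2, chr11:54249900-54250029, minus strand: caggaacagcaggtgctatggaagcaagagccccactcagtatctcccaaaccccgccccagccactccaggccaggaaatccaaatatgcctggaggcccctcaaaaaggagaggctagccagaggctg
Tnfaip3 has 2 matches in this stretch and Il6 has 1. A match describes the letters of the window, and binding was not measured in this study. The motif TGANTCA, bound by AP-1, was found in 4 of the 10 windows, against 7.81% of all windows, and TATAAA in 4 of 10, against 13.6%. None of these matches in the windows of the 9 genes overlapped a κB match (0 overlaps).

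Median raw signal was 119.1 to 134.7 on the 9 arrays, with 40.6% to 43.2% of probes detected (detection p below 0.05), and 73.6 to 97.9 on the 4. With 3 arrays or 1 array per group, the number of arrays limits the precision. Over genes, the array of TK/anti-Ang2 replicate 2 correlated least with the rest (median 0.931, against 0.968 to 0.977 for the remaining 8). Its mean marker levels were the highest of the 9 arrays for mast cells, fibroblasts, skin keratinocytes, adipocytes, and macrophages and monocytes, so values without it are given below. The mean of the epithelial 4T1 list was also highest there, but its genes differed. Without that array the log2 difference between TK/anti-Ang2 and TK/IgG went from 1.05 to -1.04 for Krt5 and from 0.92 to 0.13 for Krt14. That of Krt19 went from 0.62 to 0.59, and the other tested markers of that list rose, such as Cldn4 from -0.32 to 0.24. Keratin 8 of the 4T1 carcinoma cells was detected on all 9 arrays and Epcam on none. Pdgfrb, which marks the targeted cells, averaged 5.99 ± 0.31 log2 signal in TK/IgG and 7.09 ± 0.21 in WT/IgG tumours (SD, n = 3 each), a difference of -1.10 (SE 0.26, limma adjusted p = 0.999), and TK/anti-Ang2 tumours differed from WT/IgG by -1.09. Its log2 ratio of ablation to control was 0.06 in the early pair and -0.78 in the late pair.

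On the 9 arrays, 9 of the 10 genes had higher means in TK/anti-Ang2 than in WT/IgG tumours, and Csf1 was lower. The differences on the log2 scale were 1.46 for Saa3, 1.28 for Il1a, 1.19 for Csf2, 1.02 for Il1b, 0.97 for Il6 and 0.90 for Tnfaip3. Without TK/anti-Ang2 replicate 2, Saa3 was at 0.87 and Il6 at 0.52. No gene of the 11057 passed an adjusted p of 0.05 in limma (a linear model over all 9 arrays with Benjamini-Hochberg adjustment), a background of 0%, and the adjusted p of the 10 genes ran between 0.672 and 0.780. At an unadjusted p below 0.05, 4 of the 10 were higher (Csf2, Tnfaip3, Il1a and Il6), against 2.89% of all genes, and 1 was lower (Csf1), against 4.49%. The arrays of the 2 groups did not overlap for 3 genes on the higher side (Csf2, Il1a and Tnfaip3), against 4.83% of all genes, and for Csf1 on the lower side, against 7.74%. A further Il1a probe, not used in these counts, overlapped between the groups. A difference above 0 was found for 44.6% of all genes, and the median difference was 0.94 over the 10 genes and -0.04 over all genes. Csf1 remained the lower gene and the other 9 the higher ones in each of the 9 fits that left out 1 array, but the number with an unadjusted p below 0.05 ran between 2 and 9. It was 9 without TK/anti-Ang2 replicate 3, 2 without TK/anti-Ang2 replicate 1 or WT/IgG replicate 2, and 3 without TK/anti-Ang2 replicate 2. The share of all genes at that level moved too. Without TK/anti-Ang2 replicate 3, 4.87% of all genes were higher and 8.91% lower. These shares were 2.04% and 2.41% without TK/anti-Ang2 replicate 1, and 2.70% and 3.71% without TK/anti-Ang2 replicate 2. RNA of a whole tumour cannot tell more cells of a type from more RNA per cell.

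The 2 steps of this difference had their largest values on different genes, with 1 probe per gene. Between TK/IgG and WT/IgG tumours, the largest differences among the 10 genes were 1.18 for Csf2 and 0.54 for Tnfaip3, and the other 8 lay between -0.16 and 0.29. The further Il1a probe gave 0.53 here, against 0.29 for the probe that represents Il1a. No gene passed the adjusted p, again 0% of genes, and 1 of the 10 (Csf2) was higher at an unadjusted p below 0.05, against 1.24% of all genes, and 0 were lower, against 1.7%. Csf2 was also the 1 gene of the 10 whose arrays did not overlap, against 3.19% of all genes on the higher side and 5.07% on the lower. Means were higher for 9 of the 10 genes, against 46.4% of all genes, with a median difference of 0.15, against -0.02 over all genes. That count was 6 without WT/IgG replicate 2 and 6 without WT/IgG replicate 3. Of the 9 genes, Csf2 and Tnfaip3 stayed above 0 in every fit that left out 1 array, and the other 7 turned negative in at least 1. Between TK/anti-Ang2 and TK/IgG tumours, Saa3 (1.32), Il1a (0.98), Il6 (0.81), Il1b (0.75) and Csf3 (0.69) had the largest differences, and Csf2 had 0.01. Again 0% of genes passed the adjusted p in limma, with an adjusted p of 0.992 to 0.999 for the 10 genes. None of the 10 had an unadjusted p below 0.05 in this comparison, where 1.28% of genes were higher and 2.06% lower at that level. Il1a alone of the 10 did not overlap between these groups, against 2.61% of all genes on the higher side and 4.33% on the lower. Its further probe did overlap. Means were higher for 9 of the 10, against 46.9% of all genes, with medians of 0.54 over the 10 genes and -0.02 over all genes. The 3 comparisons share groups, so they are not independent of each other, and whether one step differed from another was not tested.

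**Figure D1:**
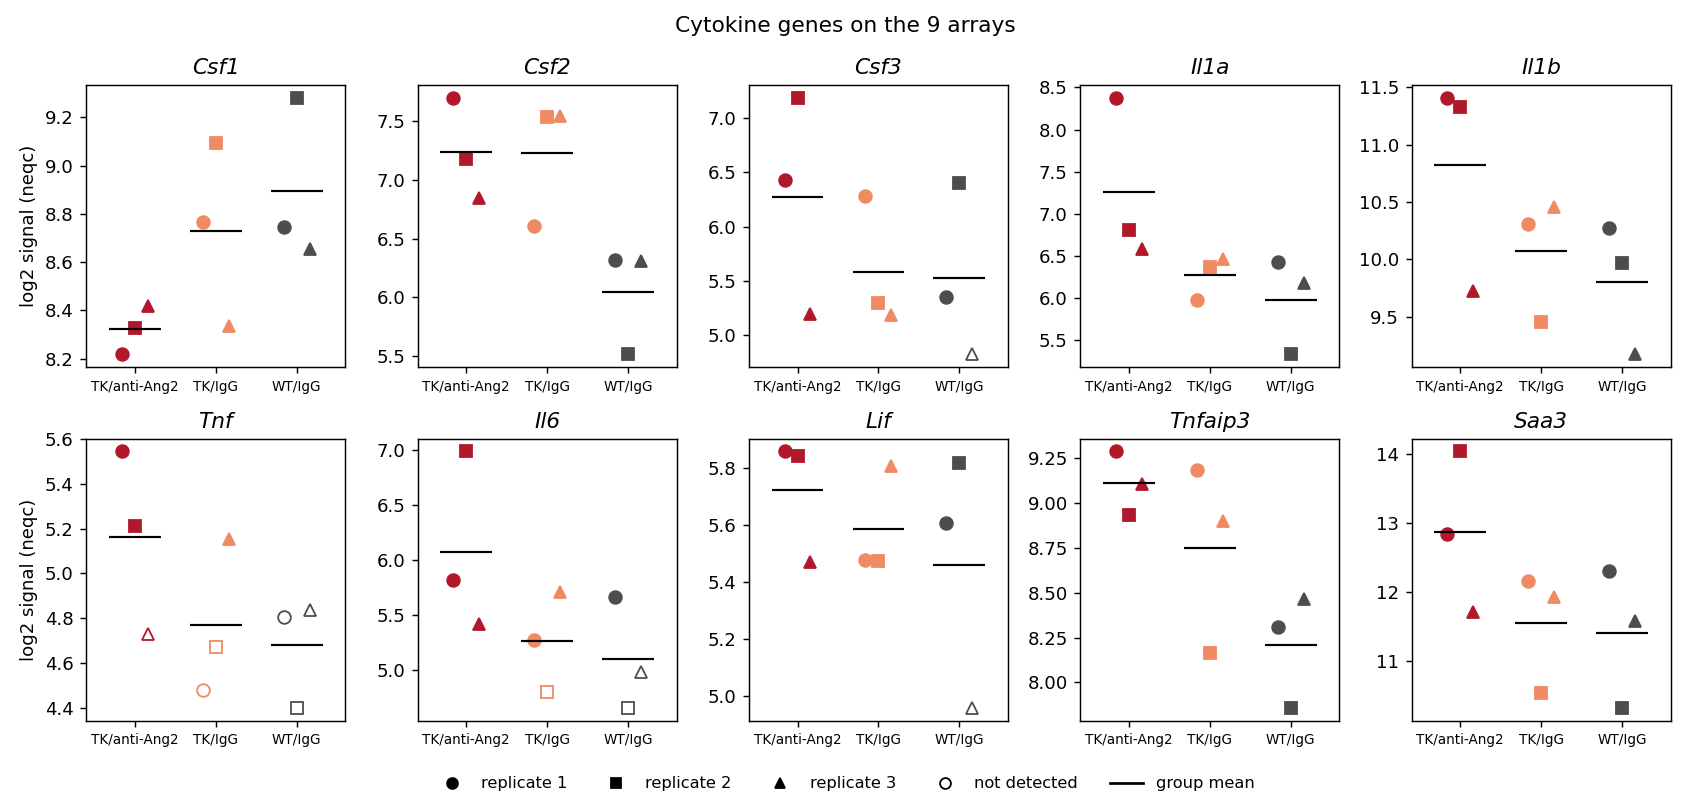
Log2 signal (vertical axis, own scale for each gene) of the 10 genes on the 9 arrays, with TK/anti-Ang2, TK/IgG and WT/IgG tumours from left to right, a symbol per replicate, open symbols for arrays on which the probe was not detected and a line at the group mean. WT/IgG arrays lie below all arrays of both TK groups for Csf2, and TK/anti-Ang2 replicates 1 and 2 hold the highest value of 9 genes.

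**Figure D2:**
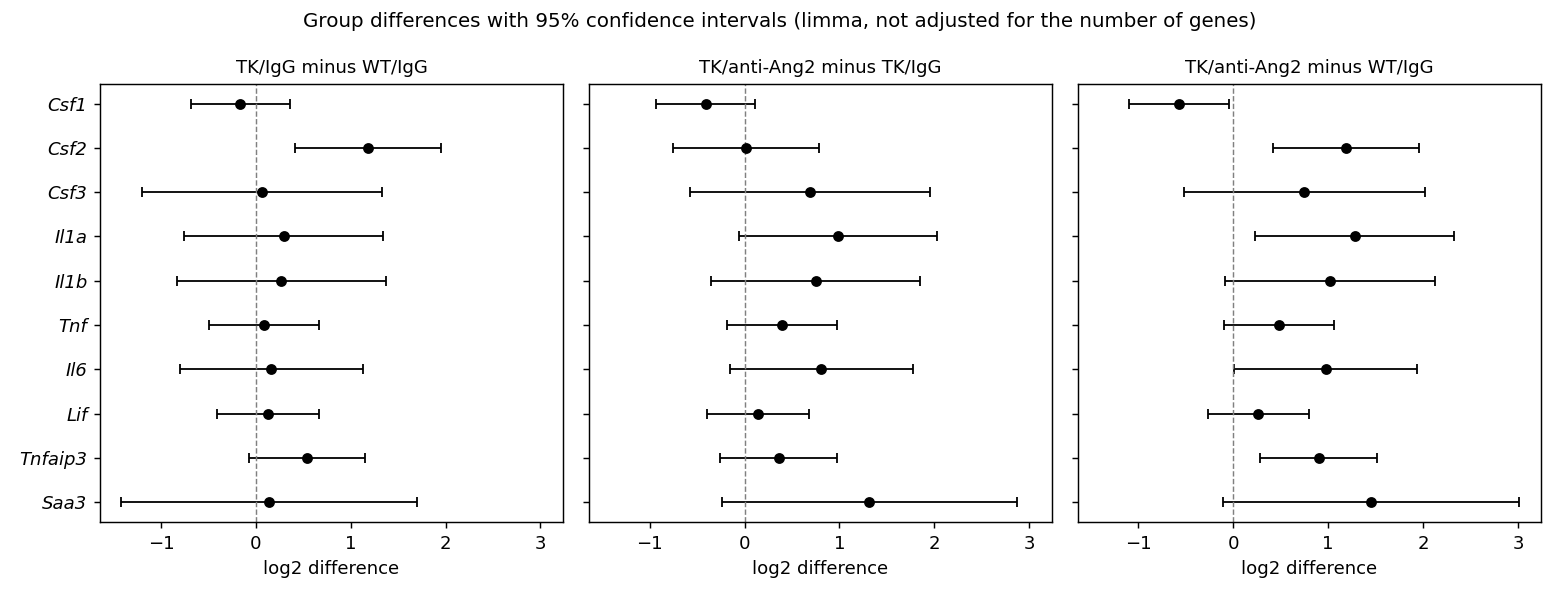
Differences of group means on the log2 scale (points) with 95% confidence intervals (bars) from limma, not adjusted for the number of genes, for the 10 genes in the 3 comparisons. The interval lies above 0 for Csf2 between TK/IgG and WT/IgG, and for Csf2, Il1a, Il6 and Tnfaip3 between TK/anti-Ang2 and WT/IgG, where that of Csf1 lies below 0.

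Csf2, measured by 1 probe detected on all 9 arrays, had log2 signals of 7.70, 7.17 and 6.84 in TK/anti-Ang2 tumours, 6.60, 7.53 and 7.54 in TK/IgG tumours, and 6.32, 5.52 and 6.31 in WT/IgG tumours. Every array of either TK group lay above every WT/IgG array, and the 2 TK groups overlapped. The means were 7.24 ± 0.43, 7.23 ± 0.54 and 6.05 ± 0.46 for TK/anti-Ang2, TK/IgG and WT/IgG (SD, n = 3 each). This amounts to a 2.26-fold higher signal in TK/IgG than in WT/IgG tumours (log2 difference 1.18, SE 0.34, limma adjusted p = 0.999). The difference between TK/anti-Ang2 and WT/IgG was 1.19 (SE 0.34, limma adjusted p = 0.672). A two-sided exact permutation test gave p = 0.1 for each, the smallest that 3 arrays against 3 allow. Between the antibody groups the interval of the difference was wide, from -0.76 to 0.78, and covers any difference between these limits. WT/IgG replicate 2 held the lowest value, and without it Csf2 was 0.91 higher in TK/IgG than in WT/IgG.

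Csf1 ran the other way. Its probe, detected on all 9 arrays, gave 8.22, 8.33 and 8.42 in TK/anti-Ang2, 8.77, 9.09 and 8.33 in TK/IgG, and 8.75, 9.28 and 8.66 in WT/IgG tumours. The 3 TK/anti-Ang2 arrays were close together (mean 8.32 ± 0.10) and below all WT/IgG arrays (8.89 ± 0.34, SD, n = 3 each), whereas TK/IgG (8.73 ± 0.38) overlapped both. The log2 difference between TK/anti-Ang2 and WT/IgG was -0.57 (SE 0.23, limma adjusted p = 0.672), and it was -0.38 without WT/IgG replicate 2. Between TK/anti-Ang2 and TK/IgG it was -0.41 (SE 0.23, limma adjusted p = 0.992), and between TK/IgG and WT/IgG -0.16 (SE 0.23). Without TK/IgG replicate 3 these were -0.61 and 0.03, and without TK/IgG replicate 2 they were -0.23 and -0.34.

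Csf3 varied within groups more than between them. It read 6.43, 7.19 and 5.19 in TK/anti-Ang2, 6.28, 5.30 and 5.18 in TK/IgG, and 5.35, 6.40 and 4.82 in WT/IgG tumours, and the WT/IgG replicate 3 value was not above background. Each group had a high and a low array, and all groups overlapped. The differences were 0.75 (SE 0.56, limma adjusted p = 0.737) between TK/anti-Ang2 and WT/IgG and 0.06 (SE 0.56) between TK/IgG and WT/IgG. Leaving out TK/anti-Ang2 replicate 2 took the first of these to 0.29, and leaving out TK/anti-Ang2 replicate 3 took it to 1.29. A second Csf3 probe was detected on 2 of the 9 arrays and was not used.

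Il1a had its highest value, 8.38, in TK/anti-Ang2 replicate 1, with 6.81 and 6.58 in the other TK/anti-Ang2 tumours. TK/IgG tumours gave 5.98, 6.36 and 6.47, and WT/IgG tumours 6.42, 5.33 and 6.18. The lowest TK/anti-Ang2 value, 6.58, was above the highest of the other groups, 6.47, so on this probe the groups were apart by a small margin. The log2 difference from TK/IgG was 0.98 (SE 0.46, limma adjusted p = 0.992), and without TK/anti-Ang2 replicate 1 it was 0.42. From WT/IgG it was 1.28 (SE 0.46, limma adjusted p = 0.672), and 0.72 without that array. A further Il1a probe, detected on 8 of the 9 arrays, gave 0.85 and 1.39 for the same comparisons, and it too was highest in TK/anti-Ang2 replicate 1, at 8.08. On that probe the groups overlapped: TK/anti-Ang2 replicates 2 (6.24) and 3 (6.53) lay below TK/IgG replicate 3 (6.75). Its TK/anti-Ang2 replicate 2 value was also below that of WT/IgG replicate 1 (6.26).

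Il1b, the other interleukin-1 agonist, was high in the same tumour and in TK/anti-Ang2 replicate 2. Its log2 signals were 11.41, 11.33 and 9.73 in TK/anti-Ang2, 10.30, 9.46 and 10.45 in TK/IgG, and 10.28, 9.97 and 9.17 in WT/IgG tumours. TK/anti-Ang2 replicate 3 lay within the range of the other groups, so the groups overlapped. Means were 10.82 ± 0.95, 10.07 ± 0.54 and 9.80 ± 0.57 (SD, n = 3 each). The difference between TK/anti-Ang2 and WT/IgG was 1.02 (SE 0.49, limma adjusted p = 0.673). It was 0.70 without WT/IgG replicate 3 and 1.56 without TK/anti-Ang2 replicate 3. Between TK/anti-Ang2 and TK/IgG the Il1b difference was 0.75, with 0.44 without TK/IgG replicate 2 and 1.30 without TK/anti-Ang2 replicate 3. Tnf was near background: its better probe was detected on 3 of 9 arrays, TK/anti-Ang2 replicates 1 (5.55) and 2 (5.21) and TK/IgG replicate 3 (5.16), and on no WT/IgG array. The other 6 values ran between 4.40 and 4.84. Its measured means were 5.16 in TK/anti-Ang2 and 4.68 in WT/IgG tumours (log2 difference 0.48, limma adjusted p = 0.677), and the difference was 0.29 without TK/anti-Ang2 replicate 1. No fold is given, because TK/anti-Ang2 replicate 3 was not above background either. The second Tnf probe was detected on no array.

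Il6 was detected on 6 of 9 arrays: all 3 TK/anti-Ang2 tumours (5.82, 6.98 and 5.42), TK/IgG replicates 1 (5.28) and 3 (5.71), and WT/IgG replicate 1 (5.66). The arrays without detection were TK/IgG replicate 2 (4.81) and WT/IgG replicates 2 (4.66) and 3 (4.98). The difference between TK/anti-Ang2 and WT/IgG was 0.97 (SE 0.43, limma adjusted p = 0.672), and it was 0.52 without TK/anti-Ang2 replicate 2. From TK/IgG it was 0.81, and 0.35 without that array. Lif, of the same cytokine family, differed little: its means were 5.72 ± 0.22, 5.59 ± 0.19 and 5.46 ± 0.45 in TK/anti-Ang2, TK/IgG and WT/IgG (SD, n = 3 each). The log2 differences of Lif were 0.14, 0.12 and 0.26, each with SE 0.24, for TK/anti-Ang2 minus TK/IgG, TK/IgG minus WT/IgG and TK/anti-Ang2 minus WT/IgG. Without WT/IgG replicate 3 the Lif difference from WT/IgG was 0.01 for TK/anti-Ang2 and -0.13 for TK/IgG. Its 2 detected probes represent 1 transcript, and the 3 probes annotated to another Lif transcript were detected on at most 1 of the 9 arrays. The detected probe that does not represent Lif gave -0.01 for TK/anti-Ang2 minus TK/IgG. It gave 0.22 for TK/IgG minus WT/IgG and 0.21 for TK/anti-Ang2 minus WT/IgG.

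Tnfaip3 had log2 signals of 9.29, 8.94 and 9.11 in TK/anti-Ang2, 9.18, 8.16 and 8.90 in TK/IgG, and 8.31, 7.86 and 8.47 in WT/IgG tumours. All TK/anti-Ang2 arrays were above all WT/IgG arrays, and TK/IgG was above WT/IgG but for its replicate 2. The means of 9.11 ± 0.18, 8.75 ± 0.53 and 8.21 ± 0.31 (SD, n = 3 each) were 1.87-fold apart between TK/anti-Ang2 and WT/IgG (log2 difference 0.90, SE 0.27, limma adjusted p = 0.672). That difference was between 0.72 and 1.03 in the fits that left out 1 array. The difference between TK/IgG and WT/IgG was 0.54 (SE 0.27), with 0.32 without TK/IgG replicate 1 and 0.83 without TK/IgG replicate 2. Between TK/anti-Ang2 and TK/IgG it was 0.36 (SE 0.27), with 0.58 and 0.07 without the same arrays.

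Saa3 had the widest spread of the 10 genes, 3.70 on the log2 scale between its highest and lowest array. It read 12.85, 14.03 and 11.71 in TK/anti-Ang2, 12.16, 10.54 and 11.93 in TK/IgG, and 12.31, 10.33 and 11.58 in WT/IgG tumours. In each IgG group replicate 2 was low, whereas TK/anti-Ang2 replicate 2 had the highest value of the 9. The groups overlapped, and their means were 12.86 ± 1.16, 11.55 ± 0.88 and 11.41 ± 1.0 (SD, n = 3 each). The difference between TK/anti-Ang2 and TK/IgG was 1.32 (SE 0.69, limma adjusted p = 0.992). Leaving out TK/anti-Ang2 replicate 2 gave 0.73, and leaving out TK/anti-Ang2 replicate 3 gave 1.89. Between TK/anti-Ang2 and WT/IgG the difference of 1.46 became 0.87 without TK/anti-Ang2 replicate 2. Between TK/IgG and WT/IgG it was 0.14, with -0.40 without WT/IgG replicate 2 and 0.64 without TK/IgG replicate 2.

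The spread within groups differed among the genes. The residual SD of Saa3 was 1.02, that of Csf3 0.82, Il1b 0.71, Il1a 0.67 and Il6 0.61, each above the 90th percentile of all genes (0.57). Those of Csf2 (0.48), Tnfaip3 (0.37), Tnf (0.34), Lif (0.31) and Csf1 (0.30) were also above the median of all genes, 0.26. Extremes fell on few arrays: TK/anti-Ang2 replicate 1 held the highest value of 6 genes (Csf2, Il1a, Il1b, Tnf, Lif and Tnfaip3) and TK/anti-Ang2 replicate 2 that of 3 (Csf3, Il6 and Saa3). WT/IgG replicate 2 held the lowest value of 6 genes (Csf2, Il1a, Il6, Tnf, Tnfaip3 and Saa3) and the highest of Csf1. TK/anti-Ang2 replicate 3 held none, and its values of Csf3, Il1b, Tnf, Il6, Lif and Saa3 lay below the highest WT/IgG array.

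Marker lists moved with some of these arrays, and their part in the results was not tested. In TK/anti-Ang2 replicate 2 the mean log2 level of the skin keratinocyte and hair markers (6 of 12 measured) was 10.48, against 5.55 to 8.44 on the other arrays. Its mast cell markers (8 of 9 measured) were at 9.78, against 5.56 to 7.54, and its adipocyte markers (6 of 10 measured) at 8.55, against 4.87 to 7.28. Among defining markers, Ms4a2 of mast cells, Krt71, Krt25, Krt27 and Dsg1a of skin and hair, and Plin1 and Fabp4 of adipocytes were detected on no array. TK/anti-Ang2 replicate 1, which held 6 of the highest values, was within the range of the other arrays for keratinocyte (6.02), mast cell (7.45) and fibroblast markers (7.93). Its adipocyte markers were at 7.12, the third highest. Its neutrophil level (8.72) and its level of epithelial 4T1 markers (10.29) were above all WT/IgG arrays, at most 8.32 and 10.08, and were each exceeded by 2 of the other arrays. WT/IgG replicate 2, which held 6 of the lowest values, also had the lowest mast cell (5.56), keratinocyte (5.55) and adipocyte (4.87) levels. Neutrophil markers (14 of 16 measured) ran between 7.58 and 8.94 in TK/anti-Ang2, 7.70 and 9.21 in TK/IgG, and 8.15 and 8.32 in WT/IgG tumours. TK/anti-Ang2 replicate 3, without any of the highest cytokine values, had the lowest neutrophil level. TK/IgG replicate 1, also without any of them, had the highest (9.21). Macrophage and monocyte markers (13 of 16 measured), highest in TK/anti-Ang2 replicate 2, ran between 9.26 and 10.15, 9.31 and 9.77, and 9.33 and 9.93 in the same groups. Fibroblast markers (10 of 10 measured) were lower in TK/IgG than in WT/IgG for all 10, with a median difference of -0.77.

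**Figure D3:**
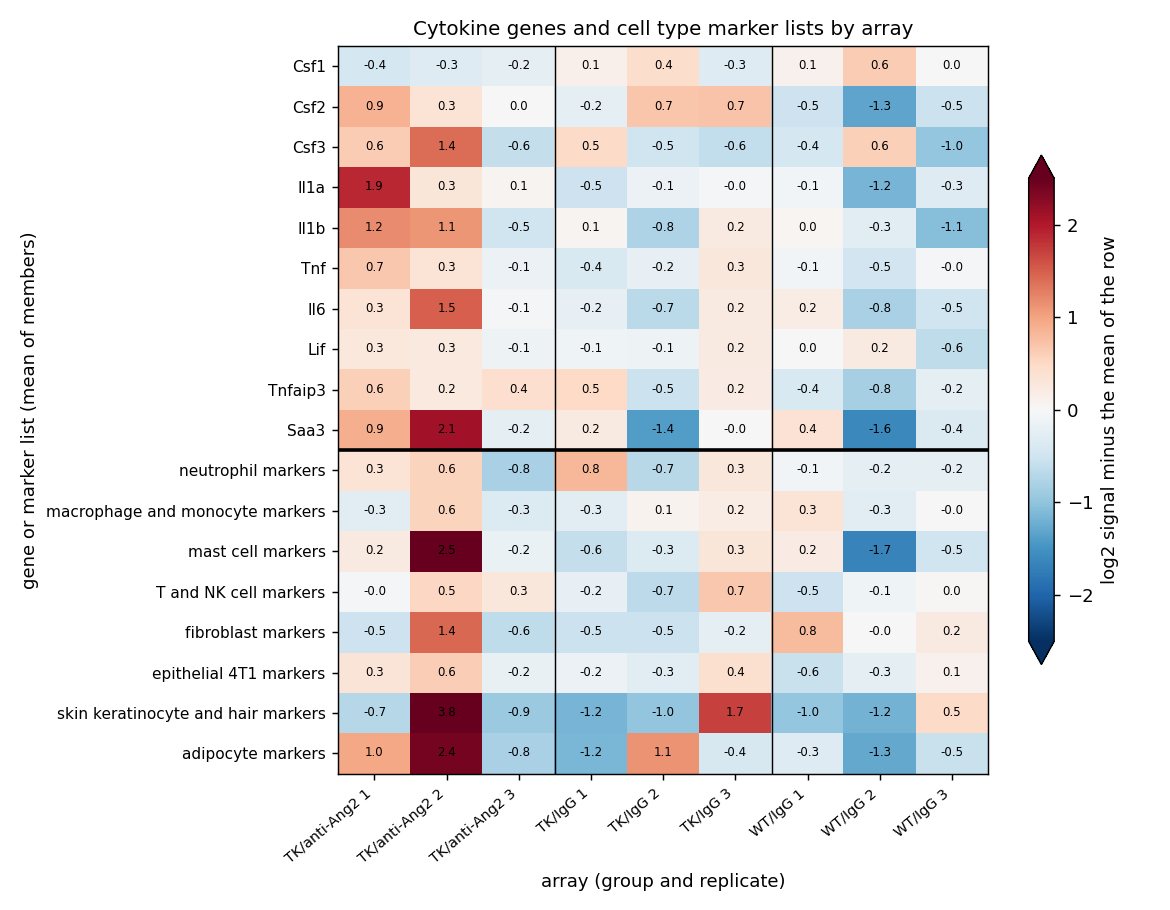
Log2 signal minus the mean of the row over the 9 arrays (colour and printed value; colour is capped at 2.5 either way) for the 10 genes, above the black line, and for the mean level of 8 cell type marker lists, below it. TK/anti-Ang2 replicate 2 is high in Saa3, Il6 and Csf3 and in the mast cell, fibroblast, keratinocyte and adipocyte lists, while TK/anti-Ang2 replicate 1 is high in Il1a, Il1b and Csf2 without a high keratinocyte or fibroblast level.

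Receptors and antagonists of these cytokines showed no common direction. Of 15 listed, 14 were tested, and 8 were higher and 6 lower in TK/anti-Ang2 than in WT/IgG tumours (median 0.10). None passed the adjusted p, and 2 were lower at an unadjusted p below 0.05, against 4.49% of all genes: Il6ra, the interleukin-6 receptor (log2 difference -0.54, SE 0.21), and Il1r1, the signalling interleukin-1 receptor (-0.49, SE 0.21). Without TK/anti-Ang2 replicate 2 the count of higher genes was 6 of 14 (median -0.07), and 1 gene on each side had an unadjusted p below 0.05. Il6ra was lower, against 3.71% of all genes in that fit, and Il1rn higher, against 2.70%. Il1rn, the interleukin-1 receptor antagonist, had a difference of 0.57 (SE 0.26, limma adjusted p = 0.673). Of 11 tested related cytokines, 8 were higher, and Osm, an interleukin-6 family cytokine of myeloid cells, had the smallest p (difference 0.92, SE 0.36, limma adjusted p = 0.672). Without TK/anti-Ang2 replicate 2 the Osm difference was 0.59, and 6 of the 11 were higher.

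NF-κB pathway genes and targets other than the 10 genes were higher in 9 of 16 tested in TK/anti-Ang2 against WT/IgG tumours (median 0.33), with none past the adjusted p. At an unadjusted p below 0.05, 3 were higher, against 2.89% of all genes, and none lower: Nfkbiz, an inducible co-regulator of NF-κB (10.53 ± 0.31 and 9.79 ± 0.20, difference 0.74), Icam1, an adhesion molecule (8.92 ± 0.26 and 8.11 ± 0.20, difference 0.81), and Relb, an NF-κB subunit (8.06 ± 0.11 and 7.70 ± 0.08, difference 0.36; SD, n = 3 each). Without TK/anti-Ang2 replicate 2, 12 of 16 were higher (median 0.23). Nfkbiz alone of the 16 then had an unadjusted p below 0.05, on the higher side, against 2.70% of all genes. Of the STAT3 and acute phase list, 12 of 14 were higher in the same comparison (median 0.49), 4 of them at an unadjusted p below 0.05, against 2.89% of all genes, and none past the adjusted p. The mean level of this list was highest on TK/anti-Ang2 replicate 2 (10.33), 0.75 above the next array, whereas TK/anti-Ang2 replicate 3 (9.19) lay within the TK/IgG range of 9.03 to 9.27. Without TK/anti-Ang2 replicate 2, 10 of 14 were higher (median 0.26). Of the 14, 4 then had an unadjusted p below 0.05, all higher, against 2.70% of all genes on that side. That number was 2 to 6 over the fits that left out 1 array. It was 6 without TK/anti-Ang2 replicate 3, where 4.87% of all genes were higher and 8.91% lower at that level. Among these genes Saa1, a serum amyloid A gene, averaged 7.61 ± 1.61 in TK/anti-Ang2, 6.82 ± 0.52 in TK/IgG and 5.22 ± 0.59 in WT/IgG tumours (SD, n = 3 each). Its difference between TK/IgG and WT/IgG was 1.60 (SE 0.70, limma adjusted p = 0.999). Between TK/anti-Ang2 and WT/IgG the Saa1 difference was 2.40, and 1.48 without TK/anti-Ang2 replicate 2. Between TK/anti-Ang2 and TK/IgG it was 0.79, and -0.12 without that array. Socs3, the feedback inhibitor of STAT3 signalling, averaged 11.23 ± 0.20, 10.81 ± 0.20 and 10.47 ± 0.47 in the same order of groups (SD, n = 3 each). Between TK/IgG and WT/IgG tumours, 9 of 16 NF-κB genes and 10 of 14 STAT3 and acute phase genes were higher, with medians of 0.05 and 0.07.

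Across the 9 arrays, 36 of the 45 pairs among the 10 genes had a correlation above 0, with a median Pearson r of 0.51. All 9 pairs below 0 were those of Csf1 with the other genes. Without TK/anti-Ang2 replicate 2 the count was 34 and the median 0.39. These are descriptions over arrays that share groups and hybridisation design, with no test. Saa3 and Il6 were the closest pair (r = 0.95), followed by Il1a and Tnf (0.88), whereas r was 0.02 for Csf2 and Csf3. Of the 11057 genes, those most like Saa3 over the 9 arrays were Gstm2 (0.95), Il6 (0.95) and Hsd11b1 (0.94). For Tnfaip3 they were Tedc1 (0.98), Ch25h (0.94) and Gcnt2 (0.93), for Csf3 Anxa2 (0.98), Car12 (0.97) and Dppa5a (0.94), and for Il1b Tspo (0.96), Churc1 (0.95) and Il13ra1 (0.94). Csf2 was most like Mylk (0.97), Tom1l1 (0.96) and Add3 (0.96), and Csf1 most like Kcna10, Emsy and Nrp2 (0.97, 0.97 and 0.96).

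**Figure D4:**
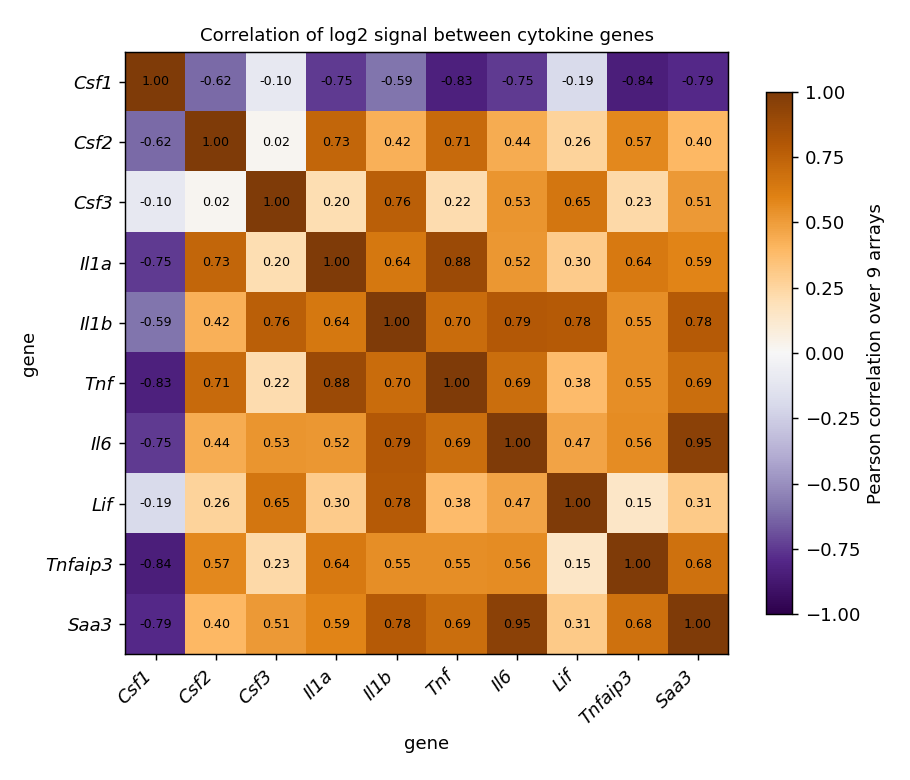
Pearson correlation of log2 signal over the 9 arrays for each pair of the 10 genes (colour and printed value). Csf1 is negative with every other gene, and Saa3 with Il6 is the highest pair at 0.95.

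The early and late ablation samples, 1 array each, allow no test, and their log2 ratios were read against all 9714 genes. In the early pair, 8 of 9 measured genes were higher in the ablation sample, against 48.2% of all genes, and 1 (Saa3) reached a log2 ratio of 1, against 0.947% of all genes. In the late pair, 9 of 9 were higher, against 50.3% of all genes, and 1 (Il1b) reached a log2 ratio of 1, against 0.391%. Scaling the arrays to equal medians in place of quantile normalisation moved the median ratio of all genes in the late pair to -0.21 from 0.00, and the count of higher genes there to 7. The ratios of Csf1 and Tnfaip3 were then -0.18 and -0.08, above that median but below 0. Il1b was then at 0.84 in the late pair, so 0 of the 9 genes reached a log2 ratio of 1 there, whereas 4 did with the authors' processed values. In the early pair 2 genes, Saa3 and Tnfaip3, reached it under either setting.

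Saa3 had log2 signals of 10.66 in the early ablation and 9.15 in the early control sample, and of 9.24 in the late ablation and 8.32 in the late control sample. The log2 ratios were 1.52 early and 0.92 late, at percentiles 99.4 and 99.5 of all genes. Il1b read 9.92 against 9.36 early (ratio 0.57) and 9.93 against 8.67 late (ratio 1.26, a 2.39-fold higher signal, percentile 99.7). Saa3 was thus the largest of the 9 ratios in the early pair and Il1b in the late pair. Tnfaip3 read 8.75 in early ablation and 7.81 in early control (ratio 0.94, percentile 99.0), and 7.78 and 7.58 in the late samples (ratio 0.20, percentile 78.5). On the linear scale, the ratios of raw signals, early and late, were 3.37 and 1.35 for Saa3, 1.75 and 1.65 for Il1b, and 2.26 and 0.85 for Tnfaip3.

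Among the colony-stimulating factors, Csf2 read 7.09 in early ablation against 6.83 in early control, and 7.21 in late ablation against 6.71 in late control (ratios 0.26 and 0.50). The ratios of its raw signals, on the linear scale, were 1.31 early and 1.08 late. Csf3 read 7.02 against 6.57 in the early pair (ratio 0.45). In the late pair Csf3 was detected in the ablation sample (6.94) and not in the control (6.40), at least 1.34-fold higher under quantile normalisation. The ratio of its raw signals was 1.15, and detection in the late control was set by the rank of the signal. Csf1 read 7.90 against 8.37 early (ratio -0.47, percentile 3.81) and 8.73 against 8.57 late (ratio 0.16). The ratios of its raw signals, on the linear scale, were 0.80 early and 0.81 late. The early ratio of Csf1 has the same sign as its differences on the 9 arrays.

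Il1a was close to level in the early pair, 6.69 against 6.63. In late ablation it was detected at 7.06 and was not detected in the late control, at least 1.46-fold higher under quantile normalisation. The ratio of its raw signals was 1.25, and detection in the late control was set by the rank of the signal. Lif had ratios of 0.30 early and 0.42 late, and a second probe of the same transcript, detected on all 4 arrays, gave 0.33 and 0.15. For the first Lif probe, the ratios of raw signals on the linear scale were 1.35 early and 1.02 late. Tnf was detected only in the early ablation sample (6.39) of the 4, and no fold is given because its signal there did not exceed the limit set for the early control. Between the controls, late against early, 2 of the 9 genes were higher, against 45.7% of all genes, and none reached a log2 ratio of 1 either way, where 0.865% of all genes were higher and 0.432% lower by that much. Saa3 (-0.83) and Il1b (-0.68) had the largest ratios there, at percentiles 1.02 and 2.16. These 2 genes were lower in late than in early control, and their late ratios use that late control.

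**Figure D5:**
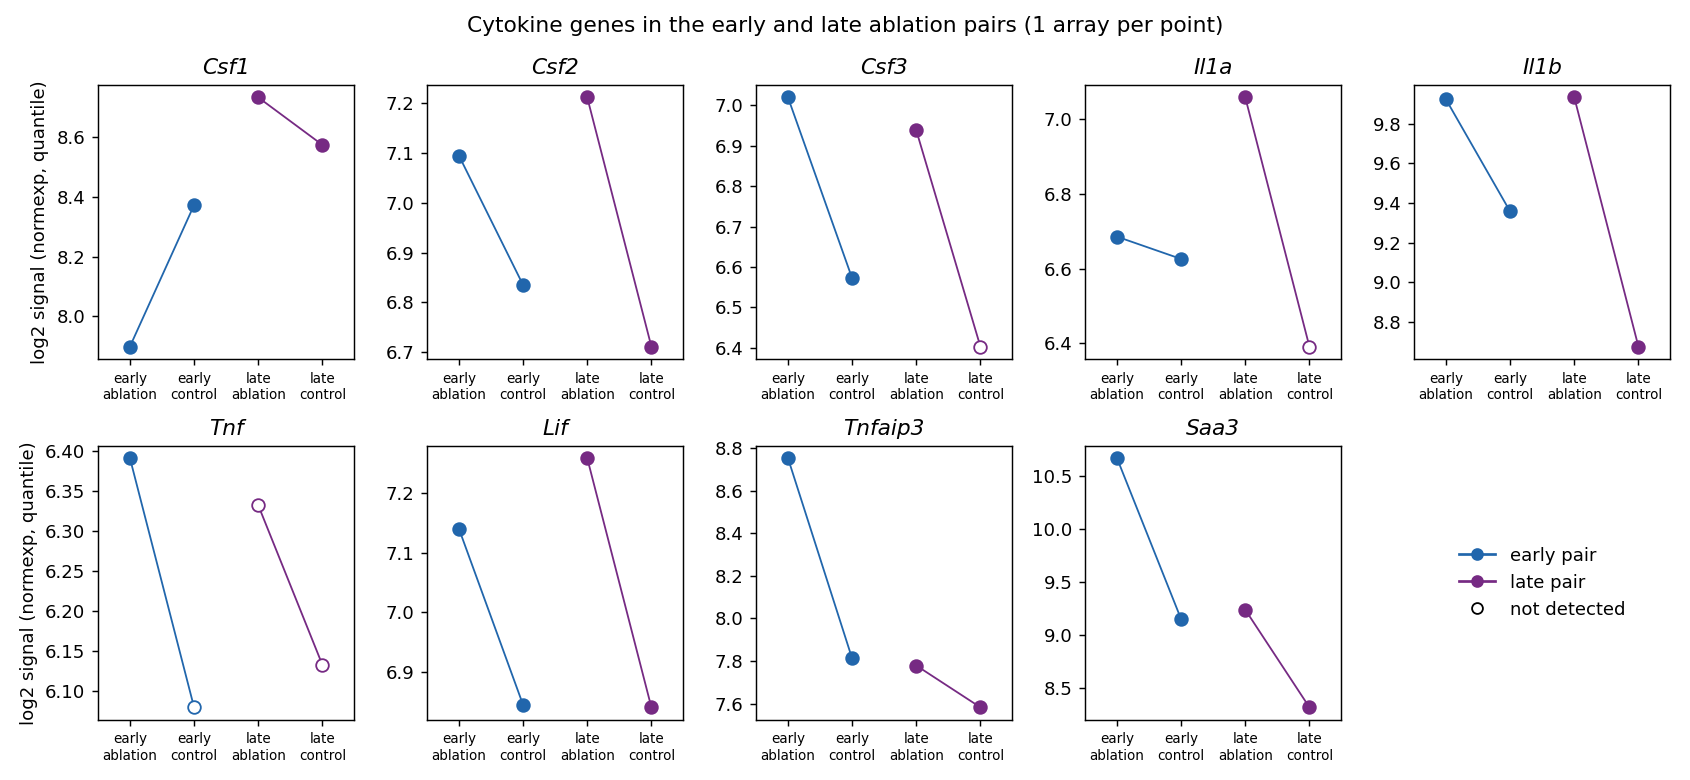
Log2 signal (vertical axis, own scale for each gene) of the 9 measured genes on the 4 arrays, with ablation left of its control in each pair, lines joining the pair and open symbols for arrays on which the probe was not detected. All lines slope down towards the control except that of Csf1 in the early pair.

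Genes around these cytokines behaved in the pairs as follows. In the late pair, 14 of 14 measured NF-κB pathway genes were higher in ablation (median 0.28), of which Nfkbiz (1.32) reached a log2 ratio of 1, and in the early pair 9 of 14 were higher (median 0.02), with Nfkbiz at 0.83. Some of the late ratios were small, such as Icam1 (0.02) and Nfkbib (0.14). The late count holds for quantile normalisation. It was not made with arrays scaled to equal medians, where the median late ratio of all genes was below 0. Osm had ratios of 0.56 early and 0.63 late. Il1rn had -0.16 early and 0.65 late, and haptoglobin (Hp), an acute phase gene, -0.09 and 1.05. Neutrophil markers were higher for 12 of 13 measured in early ablation (mean levels 8.59 and 7.84 in ablation and control) and for 10 of 13 in late ablation (8.26 and 7.61). S100a8 and S100a9, abundant neutrophil proteins, had ratios of 2.52 and 1.85 early, and 1.33 and 1.97 late. Macrophage and monocyte markers were lower for 7 of 11 early (9.02 and 9.31) and 10 of 11 late (8.93 and 9.23), with the complement gene C1qc at -0.82 and -0.62. The 4 higher ones early included Cd163 (0.81) and Mrc1 (0.51), and the 1 higher one late was Cd14 (0.74). Mast cell markers were higher for 7 of 7 in each pair, with mean levels of 7.75 and 7.04 early and 7.86 and 6.45 late. Fibroblast markers were higher for 6 of 10 in early ablation (mean levels 8.09 in ablation and 7.90 in control), with Dcn, a matrix proteoglycan, at 1.27. In the late pair they were lower for 10 of 10 (7.21 in ablation and 8.44 in control), with Col1a1, a collagen chain, at 0.18 early and -3.19 late. The part of these cell types in the cytokine ratios was not tested.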

How the data were processed

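Total RNA of 13 4T1 tumour samples was measured on Illumina bead arrays. Per the file headers, the authors deposited a probe signal, a linear intensity without normalisation, and a detection p-value. The submitters' processing notes name GenomeStudio, with no version. An alternative used the intensity values processed by the authors, which were linear in the deposited signal within an array. The larger table holds 6 further columns, of 3 arrays without a sample record here, which were left out. The 9 arrays were processed with neqc (offset 16) in limma 3.58.1 (R 4.3.3), and probes detected on at least 3 arrays were kept. The 4 arrays were corrected with normexp (offset 50) and quantile-normalised, with detection on at least 1 array. The detection column of the late control repeats its signal, so its top 42.6% of probes, the smallest detected share of the other 3, counted as detected. The probe with the highest mean represents a gene. Of 45281 probes, 34885 had 1 symbol, 18 several and 10378 none; of 25697, 23978 had 1 and 1719 none. Symbols were updated through RefSeq (34807 and 23962 matched). Designs were normalised separately, and no level is compared between them. Groups came from titles. Group differences were fitted with lmFit and eBayes over all 9 arrays and tested on simulated data. Bounds set a group without detection to the lowest detected signal. Named genes were the 10 genes, up to 3 per list by smallest p or largest ratio, and the 3 most correlated genes. The genes and lists were chosen with earlier results of these data known. Alternatives covered background correction, normalisation, filter, probe choice, array weights, replicate block and leaving out each array.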

Additional observations from a re-analysis of the deposited data

Results flagged for a closer look

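Csf1 had opposite signs in the 2 ablation pairs. Its log2 ratio of ablation to control was -0.47 in the early pair and 0.16 in the late pair, with 1 array per sample, so the difference between the pairs was not tested. With the arrays scaled to equal medians, the ratios were -0.37 early and -0.18 late, and the signs were then the same. On the 9 arrays, no single gene was tested for an outlying value within a group, since each group had 3 arrays.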

How the results depend on the processing

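None of the 10 genes passed the adjusted p under any alternative run. Between TK/IgG and WT/IgG, Saa3 (-0.16) and Tnf (-0.03) turned negative under some setting with all arrays. With an array left out, 7 of the 9 positive differences did: Saa3 (-0.40 at the lowest), Csf3 (-0.29), Lif (-0.13), Tnf (-0.11), Il6 (-0.06), Il1b (-0.05) and Il1a (-0.03), while Csf1 turned positive (0.03). Tnf and Il6 lay close to background, which limits what their values can show. Filtering on detection on all 9 arrays left 6 of the 10 genes, of which 5 were higher in each of the 3 comparisons, and called 1 gene between TK/anti-Ang2 and WT/IgG (Slc24a3). Array weights also called 1 gene there (Slc24a3, limma adjusted p = 0.0404). Median scaling put 2 of the 9 genes at a log2 ratio of 1 or more in the early pair and 0 in the late pair, and the authors' processed values put 2 and 4 there; the cause was not tested. Leaving out 1 array gave 0 genes past the adjusted p throughout, and 6 to 9 of the 10 genes higher for TK/IgG minus WT/IgG, 8 to 9 for TK/anti-Ang2 minus TK/IgG and 9 for TK/anti-Ang2 minus WT/IgG. Same-numbered arrays of different groups correlated between -0.16 and 0.39 in their deviations over 9 pairs, and 4 of 9 arrays correlated best with their own number, so the numbers were not taken as pairing. With the replicate number as a block, 0 genes passed the adjusted p and 9 of the 10 genes were higher in each comparison.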
